A study of Arabidopsis thaliana with 12 samples.

Results

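The 51 genes described here encode proteins of the cytosolic ribosome of Arabidopsis thaliana. They are the rows of the deposited count table whose gene identifiers are on a given list, 51 of 32833 genes. They fall into 23 families of paralogs, 15 families with 33 genes of the large (60S) subunit and 8 families with 18 genes of the small (40S) subunit. The list leaves out many cytosolic ribosomal protein genes, and 164 of those were kept as a comparison list. Family sums, shares and ratios below therefore cover listed members only, and L13, P1 and S15a have 1 listed member each. Of the 51 genes, 49 passed the filter on low counts. The other two were AT3G51190 of the L8 family, with 4 counts over all 12 libraries, and RPL27AB (AT1G23290) of the L27a family, with 0 counts in every library, which allows a level of up to 0.21 to 0.283 counts per M (CPM), M being mega, by library, a floor that covers counting error only. Of the exon bases of RPL27AB, 98.3% are overlapped by another annotated gene on the opposite strand, and the libraries came from a stranded mRNA kit whose strand setting at counting was not stated.

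RNA was sequenced from whole seedlings in 4 groups of 3 biological replicates, in a study of the B-box protein BBX28 and the transcriptional response to shade. The groups were the wild-type accession Col-0 and the line bbx28-5, each in white light (WL) or simulated shade (SS). All seedlings had grown on agar and water with no other agent, for 2 days with 10 h light and 14 h dark per day, before 4 h in one of the lights. Photosynthetically active radiation was 90 µmol per square metre per second in white light and 20 in shade, made with a green filter, and the red to far-red ratios were 1.1 and 0.145. The sources used here do not give the lesion in bbx28-5, so BBX28 counts do not check the line. BBX28 stood at 64.1 to 74.2 CPM in white light and 104 to 115 CPM in shade in Col-0, and at 99.8 to 108 CPM and 144 to 209.8 CPM in bbx28-5. All groups are whole seedlings, in which fewer cells of a type and less RNA per cell cannot be told apart.

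Ribosomal proteins and rRNA together make the ribosome, the machine that translates mRNA. In Arabidopsis nearly every ribosomal protein is encoded by a small family of paralogous genes, whose products are close in sequence. Ribosomal protein genes are known as a co-regulated set that follows growth, light and energy status, partly through the TOR kinase, whose pathway leads to phosphorylation of ribosomal protein S6. Short upstream motifs known as the telo box and site II are background knowledge for this gene class in plants.

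Libraries held 10.6 to 14.3 M counts, and the members took 0.76 to 0.782% of them in Col-0 in white light and 0.538 to 0.566% in Col-0 in shade. In bbx28-5 they took 0.797 to 0.863% in white light and 0.586 to 0.703% in shade. Library scaling factors by TMM, a trimmed mean of log ratios between libraries, ran from 0.79 to 0.867 in bbx28-5 in shade and from 1.01 to 1.08 in the other 3 groups. Replicate 2 of bbx28-5 in shade stood apart, with a correlation of log2 CPM of 0.964 with each of its fellow replicates. In that library 41 of 49 members were above the mean of the other replicates, by a median of 0.368 on the log2 scale, and the excess fell with transcript length, with r = -0.653 across 49 members and -0.478 across 19621 genes. Values without it are given beside the results it moved most. Below, CPM is on the TMM scale, a gene rose or fell where edgeR's quasi-likelihood test gave a Benjamini-Hochberg adjusted p under 0.05 over all 19711 tested genes, and errors are standard errors (SE) of log2 fold changes or standard deviations (SD) of 3 libraries.

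Levels in Col-0 in white light spread widely, in CPM per kilobase of transcript. The 5 highest members were AT5G20290 of the S8 family at 309, RP1 of the L3 family at 264, ATL5, which binds the 5S rRNA as L5, at 241, RPS6 at 217 and SAC52 of the L10 family at 217. The last 2 could not be ordered. The 5 lowest among the tested members were XW6 at 17.8, RPL10B at 16, AT3G57490 at 13.8, AT5G59240 at 3.28 and AT2G40010 at 2.60. XW6 and AT3G57490 encode S2, RPL10B L10, AT5G59240 S8 and AT2G40010 the stalk protein P0. Another annotated gene overlaps 50.2% of the exon bases of AT2G40010, so its level is uncertain. Of the 50-base windows in the exons of XW6, 28.9% also occur elsewhere in the genome, so its level and its share of the S2 counts, below, are uncertain too. All 5 were the minor paralogs of families whose main gene was far higher. AT2G41840 took 85.4% of the S2 counts, AT5G20290 99.2% of the S8 counts and AT3G09200 88.3% of the P0 counts.

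Several families had paralogs that parted in shade, as described below, and upstream sequence is shown for 1 pair in each of L9, S2 and S6. The sequences are the 250 bases before the annotated gene start, read 5′ to 3′ on the gene's strand from the RefSeq copy of TAIR10.1. Capitals mark matches to site II (TGGGCC or TGGGCT, either strand), and the telo box (AAACCCTA, either strand) has no match in these 6. Matches may overlap each other. The L9 gene PGY2 lies downstream of chr1:12022975-12023224 on the plus strand and has 4 matches, and its paralog AT4G10450 follows chr4:6464559-6464808 on the minus strand and has 0. The S2 gene AT2G41840 has 2 matches at chr2:17461540-17461789 on the minus strand, where 135 of the 250 bases lie in exons of other annotated genes. Its paralog AT3G57490, at chr3:21281065-21281314 on the minus strand, has 0. The S6 genes EMB3010, at chr5:3260255-3260504 on the minus strand, and RPS6, at chr4:15347805-15348054 on the minus strand, have 3 and 1. In these pairs the gene with more matches had the higher log2 shade effect in both genotypes. Families not printed differ. In S3, AT5G35530 rose with 1 match and AT3G53870 fell with 4. In S18, RPS18C has 0 and a higher shade effect than AT1G34030, which has 1. In L10, SAG24 rose and SAC52 fell with 1 each.
PGY2: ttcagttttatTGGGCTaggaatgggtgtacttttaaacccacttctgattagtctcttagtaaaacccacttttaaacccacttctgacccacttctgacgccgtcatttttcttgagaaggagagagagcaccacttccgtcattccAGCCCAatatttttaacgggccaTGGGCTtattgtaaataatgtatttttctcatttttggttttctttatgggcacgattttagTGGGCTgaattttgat
AT4G10450: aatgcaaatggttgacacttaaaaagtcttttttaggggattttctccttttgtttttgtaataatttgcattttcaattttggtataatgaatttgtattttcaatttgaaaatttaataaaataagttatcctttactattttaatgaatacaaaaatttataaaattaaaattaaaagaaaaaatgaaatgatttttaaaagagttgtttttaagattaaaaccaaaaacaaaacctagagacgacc
AT2G41840: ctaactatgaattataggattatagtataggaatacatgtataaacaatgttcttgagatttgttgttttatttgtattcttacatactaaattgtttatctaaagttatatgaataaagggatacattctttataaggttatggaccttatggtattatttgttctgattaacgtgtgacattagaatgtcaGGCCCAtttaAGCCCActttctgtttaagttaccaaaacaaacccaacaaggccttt
AT3G57490: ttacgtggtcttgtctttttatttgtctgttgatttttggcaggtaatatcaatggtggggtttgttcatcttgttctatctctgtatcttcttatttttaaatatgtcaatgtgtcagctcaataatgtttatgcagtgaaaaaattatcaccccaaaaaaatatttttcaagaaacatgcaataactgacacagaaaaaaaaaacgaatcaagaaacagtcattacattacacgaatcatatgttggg
EMB3010: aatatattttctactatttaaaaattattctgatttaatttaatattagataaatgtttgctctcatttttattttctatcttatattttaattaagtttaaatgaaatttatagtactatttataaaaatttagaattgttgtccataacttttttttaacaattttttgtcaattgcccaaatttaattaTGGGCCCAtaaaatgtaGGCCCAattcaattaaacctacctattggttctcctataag
RPS6: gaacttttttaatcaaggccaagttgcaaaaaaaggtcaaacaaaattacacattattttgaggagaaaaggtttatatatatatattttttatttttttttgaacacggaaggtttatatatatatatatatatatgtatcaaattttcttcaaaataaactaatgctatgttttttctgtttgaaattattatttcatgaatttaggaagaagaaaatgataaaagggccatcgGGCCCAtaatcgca

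Site II was present in 35 of the 51 members, 68.6%, and in 19.2% of 27443 upstream sequences of the same length. The telo box was present in 9 members, 17.6%, against 4.49% of all upstream sequences, and both motifs in 5 members, 9.80%, against 1.36%. The G-box CACGTG, a motif bound by light signalling factors, was in 1 member, 1.96%, against 6.49% of all. A match says only that the letters are there, and for some members the upstream bases lie partly or wholly in exons of other genes.

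In Col-0, 4 h of shade was accompanied by lower mRNA of most members. Of 49 tested members 34 fell and 2 rose, where 30.4% of all tested genes fell and 29% rose, and the median log2 fold change was -0.56 for the members and -0.02 for all genes. The fall reached both subunits, with 24 of 31 tested large subunit genes down (median -0.66) and 10 of 18 small subunit genes down (median -0.42). The difference between the subunits was not tested. Without bbx28-5 shade replicate 2, whose spread enters the shared estimate, 41 fell and 4 rose, the added rises being AT5G27850 and RPS18C. That fit called 6968 of all 19711 genes lower and 6910 higher. In 42 members every shade library was below every white light library, and in 5 every one was above, against 36.7% and 36.1% of all genes.

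**Figure D1:**
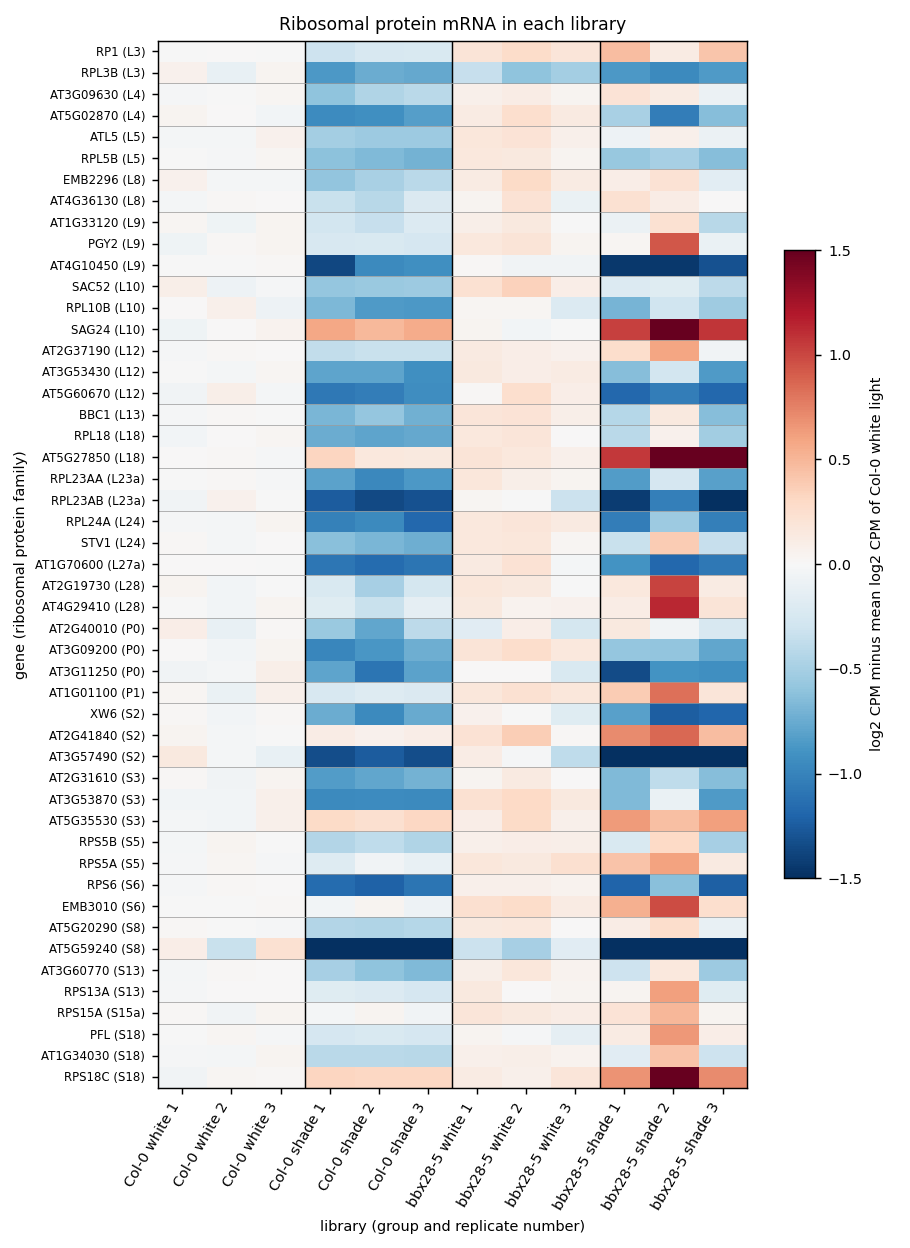
Heat map of the 49 tested members (rows, by family) in the 12 libraries (columns, by group), as log2 CPM minus the mean log2 CPM of Col-0 in white light, with colours saturating at 1.5 in either direction. Most rows are blue in Col-0 shade, while SAG24, AT5G35530, AT5G27850 and RPS18C are red there, and replicate 2 of bbx28-5 in shade is redder than its neighbours in most rows.

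AT5G02870, 1 of 2 listed genes for L4, which lines the exit tunnel, stood at 239, 234 and 226 CPM in white light, against 121, 123 and 131 CPM in shade. All shade libraries lay below all white light libraries, and the gene fell by 0.90 ± 0.12 on the log2 scale (SE, edgeR adjusted p = 1.47e-05). AT1G70600, the only listed L27a gene with counts, stood at 175, 174 and 173 CPM in white light, against 82.0, 78.1 and 81.8 CPM in shade, a fall of 1.11. RPL23AB, for L23a at the tunnel exit, went from 82.9, 89.8 and 85.2 CPM to 36.2, 33.6 and 34.8 CPM, a fall of 1.30. These groups did not overlap either. AT4G10450 of L9 and AT3G57490 of S2 also fell, by 1.07 and 1.31.

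RPS6, for the S6 protein that S6 kinase phosphorylates, was among the members that fell most. Its CPM values were 250.5, 256 and 255 in white light, against 114, 109.6 and 119 in shade. Shade libraries were all below, with a log2 fold change of -1.15 ± 0.13 (edgeR adjusted p = 3.65e-06). AT5G59240, the minor S8 gene, had 127 counts over the 3 white light libraries and 17 over the 3 shade libraries. After TMM scaling the shade level was 13.8% of the white light level, with an exact binomial 95% interval of 7.79 to 23% that covers counting error only.

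Both members that rose in Col-0 have paralogs that fell. SAG24, an L10 gene annotated as senescence associated, stood at 151, 158 and 164 CPM in white light, against 235, 219.8 and 233 CPM in shade. The shade libraries were all higher and the log2 fold change was 0.54 ± 0.14 (edgeR adjusted p = 0.00454). AT5G35530 is 1 of 3 listed genes for S3, a protein at the mRNA entry channel. It stood at 117, 117 and 126 CPM in white light, against 146, 142 and 149 CPM in shade. Its log2 fold change was 0.28 ± 0.09 (edgeR adjusted p = 0.0155). That call was lost without Col0_WL replicate 1, Col0_WL replicate 2 or Col0_SS replicate 3, and under total-count scaling, where the log2 fold change was 0.23. Summed over the listed members of each family, 15 of 23 families fell by the same edgeR test, against 30.4% of genes, and the other 8 had no call. The L13 sum, among the 15, is BBC1 alone.

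In bbx28-5 the response to shade was mixed. Of 49 members 22 fell and 7 rose, against 33.1% and 34.4% of all genes, with a median of -0.18 for the members and 0.00 for all genes. The falls were 16 of 31 in the large subunit (median -0.38) and 6 of 18 in the small subunit (median -0.03), and 5 of the 7 rises were in the small subunit. The median depended on single libraries: it was -0.38 without bbx28-5 shade replicate 2, when 30 fell and 7 rose, and -0.05 without replicate 3, when 20 fell and 12 rose. Of all 19711 genes 7151 fell and 7254 rose without replicate 2, and 6261 fell and 6646 rose without replicate 3. By total-count scaling 33 fell and 3 rose, with a median of -0.53 for the members and -0.34 for all genes. In Col-0 36 then fell and 1 rose, with medians of -0.61 and -0.07. Of all 19711 genes, that scaling called 9043 lower and 4644 higher in bbx28-5, and 6386 lower and 5262 higher in Col-0.

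All 22 members that fell in bbx28-5 also fell in Col-0, and both members that rose in Col-0 rose in bbx28-5. A further 12 fell in Col-0 and had no call in bbx28-5, among them AT3G09630 of L4, STV1 of L24, ATL5 and AT5G20290. Another 5, namely PFL, AT2G41840, RPS18C, EMB3010 and AT5G27850, had no call in Col-0 and rose in bbx28-5. The remaining 8 had no call in either genotype, and no member was called in opposite directions. A call in 1 genotype only does not show that the genotypes differ, and the test of that difference is given below.

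The largest rises in bbx28-5 were in SAG24 and AT5G27850. SAG24 stood at 162, 153 and 157 CPM in white light, against 320.1, 508 and 329.8 CPM in shade, a log2 fold change of 1.29 ± 0.14 (edgeR adjusted p = 1.93e-06). AT5G27850, an L18 gene, stood at 247, 240.0 and 227 CPM in white light, against 449, 632 and 607 CPM in shade, a log2 fold change of 1.24 ± 0.12 (edgeR adjusted p = 3.44e-07). Of the exon bases of AT5G27850, 17% overlap another annotated gene, and the strand setting is not known here, so the share of its neighbour in these counts was not tested. RPS18C went from 132, 128 and 137 CPM to 193, 395 and 198 CPM, with the highest value in replicate 2, and the log2 fold change was 0.99 with that library and 0.56 without it. In all 3 genes every shade library was above every white light library, and all 3 calls held under total-count scaling, at 0.94, 0.90 and 0.62.

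Small rises in bbx28-5 were sensitive to scaling and to replicate 2. AT2G41840, EMB3010, AT5G35530 and PFL had log2 fold changes of 0.48, 0.40, 0.42 and 0.35, and under total-count scaling 0.13, 0.05, 0.08 and -0.01, with no call. Without replicate 2 they were 0.38, 0.18, 0.47 and 0.14, and PFL had no call (edgeR adjusted p = 0.0612). AT3G57490 and AT5G60670, both minor paralogs, were among the falls. AT3G57490 stood at 18.3, 16.7 and 13.1 CPM in white light, against 5.77, 5.31 and 3.69 CPM in shade, and AT5G60670 of L12 at 44.0, 51.7 and 46.5 CPM and 19.3, 21.1 and 19.2 CPM. Neither gene's groups overlapped, and the log2 fold changes were -1.72 and -1.26. AT5G59240 had 91 counts in white light and 4 in shade, 1 or 2 in each library, so that shade stood at 6.05% of white light with an exact binomial 95% interval of 1.62 to 16%.

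**Figure D2:**
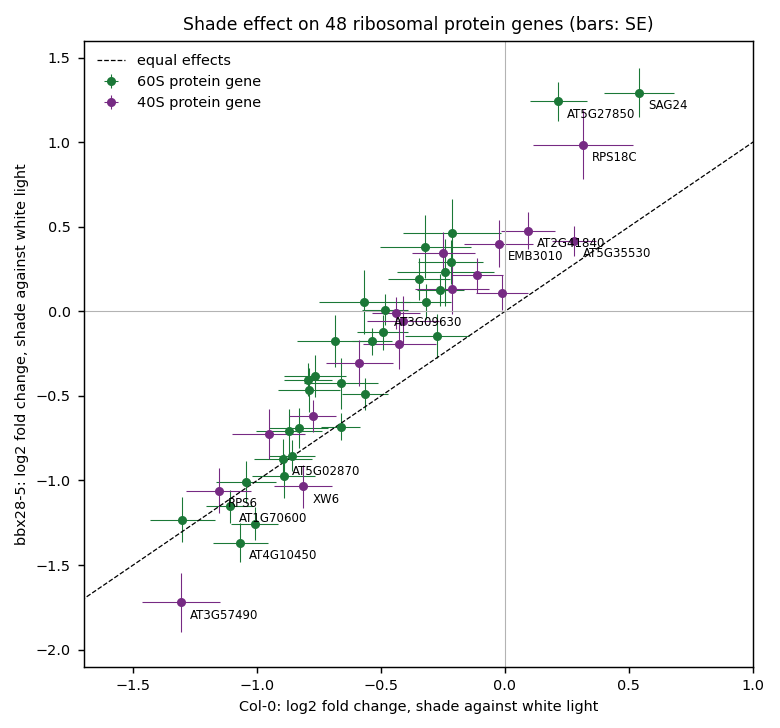
Log2 fold change of shade against white light in Col-0 (x axis) and in bbx28-5 (y axis) for 48 members, with SE bars, green for large and purple for small subunit genes, and a dashed line of equal effects. AT5G59240, with few counts in shade, is left out. Most points lie above the line, and SAG24 and AT5G27850 lie highest, at 1.29 and 1.24 in bbx28-5.

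In white light 1 member was called between the genotypes. Of 49 members 0 were higher and 1 was lower in bbx28-5 by edgeR's quasi-likelihood test, against 3.8% and 6.08% of all genes. At an unadjusted edgeR p under 0.05, 3 were higher and 1 lower, a count that was not made for all genes. DESeq2 called 1 higher and 1 lower, against 1091 and 1221 of all 19711 genes. The median was 0.11 for the members and 0.00 for all genes. Even so, in 27 members every bbx28-5 library was above every Col-0 library, and in 1 every one was below, against 19.4% and 20.2% of all genes. The lower member was RPL3B, the minor L3 gene, at 38.0, 33.7 and 37.6 CPM in Col-0 and 28.6, 24.01 and 25.5 CPM in bbx28-5. Its groups did not overlap, and the log2 fold change was -0.48 ± 0.09 (edgeR adjusted p = 0.00494). RP1, the main L3 gene, stood at 458, 461 and 456 CPM in Col-0 and 525, 554 and 518 CPM in bbx28-5 with no call, a log2 fold change of 0.22 ± 0.09 (edgeR adjusted p = 0.189). Without bbx28-5 shade replicate 2, 9 members were called higher in white light and 1 lower. Calls over all 19711 genes grew too, from 749 higher and 1198 lower to 2263 and 2511.

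In shade 26 of 49 members were higher in bbx28-5 than in Col-0 by TMM scaling and 1 was lower, against 20.9% and 14.5% of all genes, with a median of 0.40 for the members and 0.03 for all genes. Groups did not overlap in 26 members that were higher and 2 that were lower, against 24% and 19% of all genes. By total-count scaling, which moved the median of all genes by -0.30, 11 members were higher and 9 lower and their median was 0.08. That scaling called 1507 of all 19711 genes higher and 6536 lower. Relative to the median of all genes, the members' median was 0.36 higher by TMM and 0.35 higher by total counts. Rescaling shifts all genes of a library alike, so this gap is nearly the same by construction and is no check of the result. Without bbx28-5 shade replicate 2 the TMM median was 0.19, with 25 higher and 2 lower, against 5021 and 3522 of all 19711 genes.

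The 11 members higher under both scalings were RP1, AT3G09630, ATL5, SAG24, AT2G37190, AT5G27850, AT2G19730, AT1G01100, AT2G41840, EMB3010 and AT5G20290. AT5G27850 stood at 269.7, 241 and 238 CPM in Col-0 in shade against the 449 to 632 CPM given above, a log2 fold change of 1.17 ± 0.12 (edgeR adjusted p = 7.82e-06). RP1 stood at 369, 387 and 391 CPM in Col-0 and 631, 497 and 613 CPM in bbx28-5, a log2 fold change of 0.60 ± 0.09. AT1G01100, for the acidic stalk protein P1, stood at 84.4, 87.7 and 86.1 CPM in Col-0 and 129.8, 177 and 113 CPM in bbx28-5, a log2 fold change of 0.70. In all 3 genes each bbx28-5 library was above each Col-0 library. The L28 genes AT2G19730 and AT4G29410 had log2 fold changes of 0.81 and 0.77, with 285.7 and 179.5 CPM in replicate 2 against 155 to 159 and 88.5 to 94.1 CPM in the other bbx28-5 replicates, and without replicate 2 the values were 0.46 and 0.36. The single lower member was AT4G10450, at 14.9, 20.0 and 20.4 CPM in Col-0 and 14.1, 14.2 and 15.6 CPM in bbx28-5. Its groups overlapped, the log2 fold change was -0.33 ± 0.12 (edgeR adjusted p = 0.0466), and the call was lost when any of Col0_WL replicates 1 to 3, bbx28_WL replicates 1 to 3, Col0_SS replicates 2 and 3 or bbx28_SS replicate 1 was left out. Of 23 family sums 17 were higher by TMM and the other 6 had no call, and 5 were called by total counts.

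**Figure D3:**
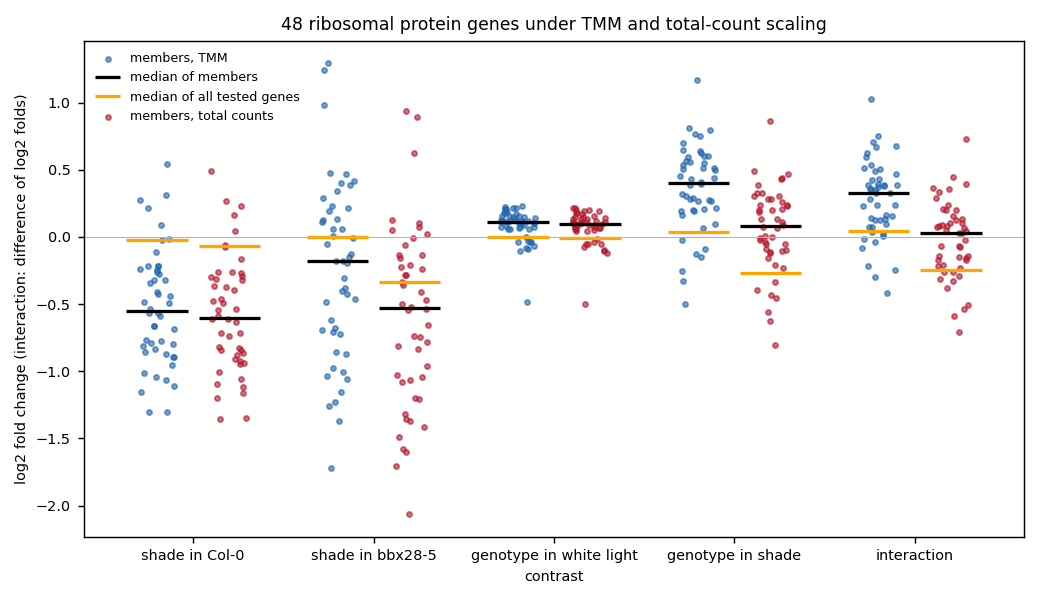
Log2 fold changes of 48 members (points) in the 5 contrasts, under TMM (blue) and total-count (red) scaling, with the median of the 48 points (black) and of all tested genes (orange). Total-count scaling lowers members and all genes together in the 3 contrasts with bbx28-5 in shade. The gap between the medians therefore stays by construction. White light and Col-0 shade move little.

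The interaction term is how far the log2 shade effect of bbx28-5 lies above that of Col-0. EdgeR called it for 4 of 49 members, all higher, against 6.52% of all genes higher and 3.79% lower. The members' share is near that of all genes. The median was 0.33 for the members and 0.05 for all genes. AT5G27850 had 1.03 ± 0.16 (adjusted p = 0.00205), SAG24 0.75 ± 0.20 (adjusted p = 0.0297), AT3G09630 0.49 ± 0.13 (adjusted p = 0.029) and PFL, a gene for S18, 0.59 ± 0.18 with an adjusted p that rounds to 0.05. AT3G09630 stood at 205, 207 and 213 CPM in Col-0 in white light, against 137, 152 and 158 CPM in shade, and in bbx28-5 at 219.0, 224 and 214 CPM and 239, 227 and 196 CPM, so that its groups overlapped in bbx28-5 and did not in Col-0. By total counts 1 member was called higher, AT5G27850, and 2 lower, AT4G10450 and AT5G60670, with a median of 0.03. Of all 19711 genes 479 were then called higher and 2641 lower. Leaving out any 1 library changed the count: 1 or 2 were called without any 1 of the 6 Col-0 or the 3 bbx28-5 white light libraries, and 7, 14 and 13 without bbx28-5 shade replicates 1, 2 and 3. Calls over all genes changed as well. From 1285 higher in the main fit they went to 717 to 836 in the former fits, and to 1698, 2685 and 1641 in the latter. Without replicate 2 the median was 0.09, and the interaction was 0.93 for AT5G27850, 0.50 for SAG24, 0.47 for AT3G09630 and 0.39 for PFL.

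The ratio of paralogs within a family does not depend on library scaling, and it changed with light in most families. For each of 33 members of 19 families, the log2 ratio of its counts to the summed counts of its listed and tested paralogs was taken. Each ratio was tested by exact permutation, two-sided, with 400 arrangements within the other factor. The smallest possible p is 0.005, which is reached only where the groups do not overlap and part the same way in both levels of the other factor. For light 29 of 33 ratios had an exact p under 0.05 and 27, in 17 families, had the smallest. The 33 p-values are unadjusted, and within a family the ratios are not independent. No ratios of other genes were computed, so there is no share to set beside these counts. Single genes of all kinds often parted with shade. Libraries did not overlap in 36.1% of all genes, higher, and 36.7%, lower, in Col-0, and in 33.8% and 34.3% in bbx28-5. The counts therefore do not show that ratios changed more often in these families than elsewhere. The 27 were RP1, AT3G09630, ATL5, PGY2, AT4G10450, SAC52, RPL10B, SAG24, AT2G37190, AT3G53430, AT5G60670, RPL18, RPL23AA, RPL24A and AT2G40010 in the large subunit, and XW6, AT2G41840, AT3G57490, AT2G31610, AT3G53870, AT5G35530, RPS5B, RPS6, AT5G20290, AT3G60770, AT1G34030 and RPS18C in the small subunit. The 2 families with a test but no ratio at the smallest p were L8, where EMB2296 had p = 0.025, and L28, where AT2G19730 had p = 0.055, by the exact permutation test.

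In L10, a late-joining protein of the large subunit, the leading gene changed with light. SAG24 made up 35.7 to 39.3% of the family's counts in Col-0 in white light and 56.1 to 57.9% in shade, and in bbx28-5 32.2 to 36.6% and 59.5 to 69.3%. SAC52, the leading L10 gene in white light, went from a mean of 58.3 to 40.8% in Col-0 and from 62.1 to 34.3% in bbx28-5. SAC52 and RPL10B fell in both genotypes while SAG24 rose in both, and the family sum had a log2 fold change of -0.05 in Col-0 with no call (edgeR adjusted p = 0.737) and rose by 0.39 in bbx28-5 (edgeR adjusted p = 0.00734).

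In S3, AT5G35530 went from 28.2 to 28.7% of the family's counts in white light to 46.1 to 47.5% in shade in Col-0, and from 27.9 to 29.3% to 38.9 to 50.4% in bbx28-5. Its paralogs AT2G31610 and AT3G53870 fell in both genotypes. In S6, RPS6 was the major gene in white light, with 56.8 to 57.4% of the counts in Col-0 and 53.6 to 55.7% in bbx28-5. In shade it held 35.8 to 39.4% and 28.5 to 32.3%, so that EMB3010 became the major gene in both genotypes. The S6 family sum fell by 0.56 in Col-0 (edgeR adjusted p = 0.0023) and had a log2 fold change of -0.21 with no call in bbx28-5 (edgeR adjusted p = 0.168).

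In L18 and S2, paralogs were called in opposite directions in bbx28-5. RPL18 went from a mean of 51.9 to 35.4% of the L18 counts in Col-0 and from 51.4 to 25.6% in bbx28-5, where it fell and AT5G27850 rose. In S2, AT2G41840 went from 85.4 to 92.6% in Col-0 and from 87.5 to 95.9% in bbx28-5, and the minor genes XW6 and AT3G57490 fell in both genotypes. In S18, RPS18C went from 39.0 to 49.9% and from 40.8 to 54.1%. In L9, AT4G10450 went from 22.1 to 13.9% and from 20.5 to 9.13%, while PGY2 went from 46.7 to 52.1% and from 48.4 to 59.99%. In bbx28-5 in shade the libraries spread from 6.07 to 11.8% for AT4G10450 and from 55.9 to 66.7% for PGY2. Replicate 2 there differed from its fellows by -0.064 and 0.973 in log2 CPM, with transcripts of 1498 and 1001 bases. The part of transcript length in these shares was not tested. PGY2 and AT1G33120 share 99.1% of their coding bases, so reads may be split between them, and their separate values are uncertain. In L4 AT3G09630 went from 47.2 to 54.3% and from 45.6 to 60.9%, which made it the major L4 gene in shade in both genotypes. Its share in bbx28-5 in shade spread from 56.8 to 66.7% by library.

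**Figure D4:**
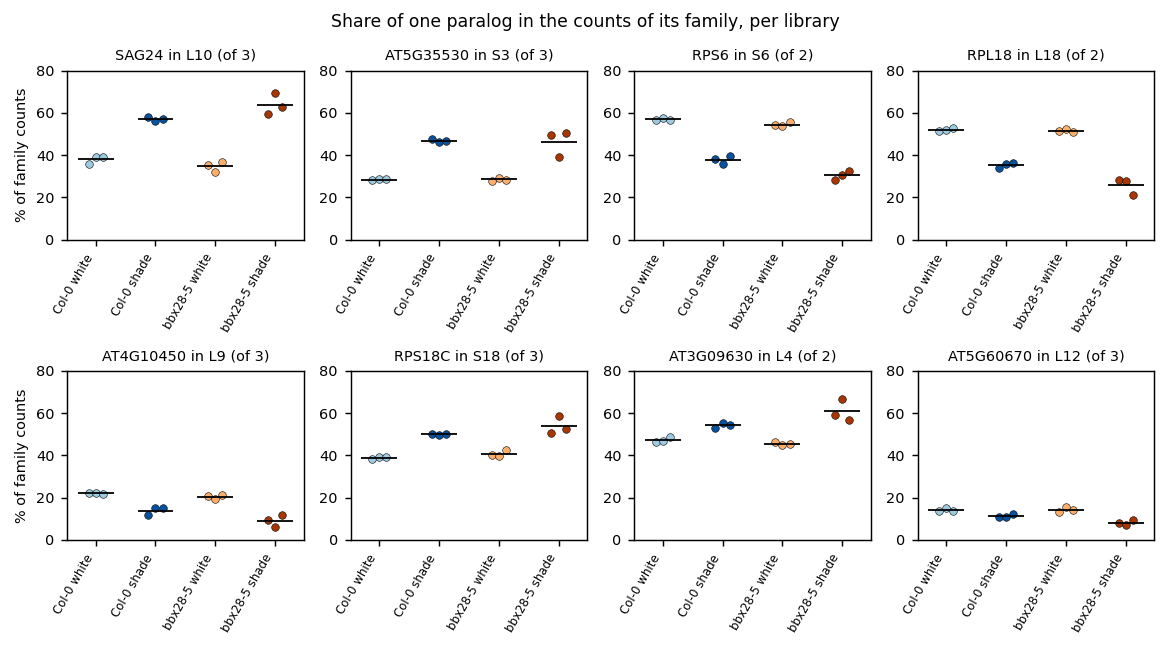
Share of a named paralog in the counts of the tested members of its family (y axis, %) in each library, for 8 families, with points for libraries and a line for the group mean. In both genotypes the shade points of SAG24, AT5G35530, RPS18C and AT3G09630 lie above their white light points, and those of RPS6, RPL18, AT4G10450 and AT5G60670 lie below them.

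The same ratios were compared between the genotypes. Of 33 ratios 17 had an exact permutation p under 0.05 for genotype and 9, in 8 families, had the smallest of 0.005. Here too no ratios of other genes were computed for comparison. The 9 were RP1, PGY2, RPL10B, RPL23AA, XW6, AT2G41840, AT2G31610, RPS6 and RPS18C. RP1 over RPL3B was the largest of these, with a mean log2 ratio 0.70 higher in bbx28-5, and RP1 held 92.3 to 93.2% of the L3 counts in Col-0 in white light against 94.8 to 95.9% in bbx28-5. The mean log2 ratio of RPS6 was 0.31 lower in bbx28-5 and that of AT2G41840 0.60 higher.

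Members with and without an upstream site II match had different median shade effects. These values are a description that was chosen after they were seen, and no test was made. In Col-0 the median log2 fold change was -0.49 for 33 tested members with a match and -0.88 for 16 without, and in bbx28-5 it was -0.12 and -0.94. For all tested genes the medians with and without were -0.01 and -0.03 in Col-0, and 0.05 and -0.03 in bbx28-5. The 9 families with members of both kinds included the L9 and S2 pairs printed above, and in 7 of the 9 the members without a match had the lower mean in each genotype. The exceptions were S13 and S18, where RPS13A, PFL and RPS18C have no match. Of their 250 upstream bases, 250, 177 and 0 lie in exons of other annotated genes. Members with a match have such bases too, as 201 for ATL5 and 250 for AT3G09200. Families whose tested members all hold a match parted as well, as S6, L10 and S3 did.

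**Figure D5:**
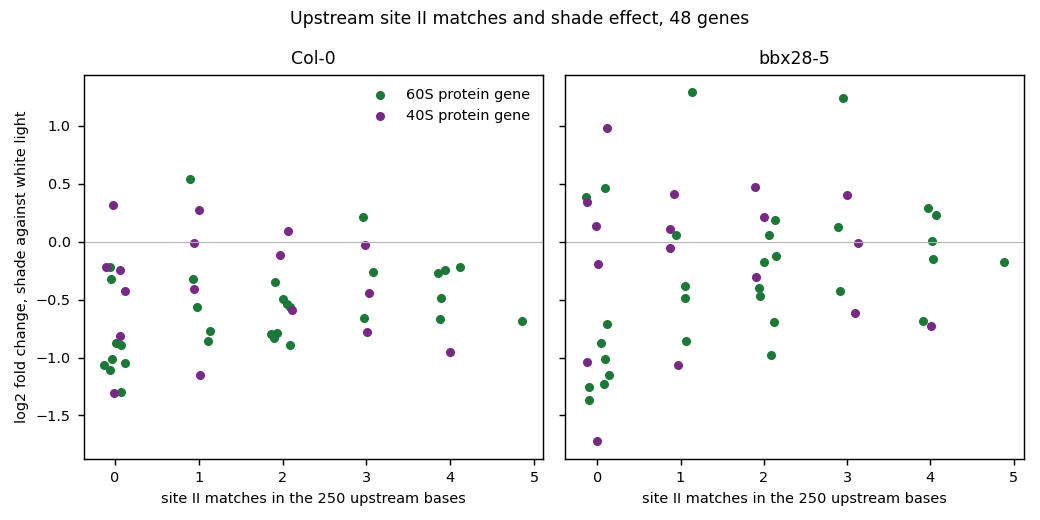
Number of site II matches in the 250 upstream bases (x axis, jittered) and log2 fold change of shade against white light (y axis) for 48 members, in Col-0 (left) and bbx28-5 (right), green for large and purple for small subunit genes, AT5G59240 left out. Genes with 0 matches reach the lowest values, at -1.31 in Col-0 and -1.72 in bbx28-5 for AT3G57490, and also hold RPS18C at 0.32 and 0.99.

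The rest of the translation machinery is given from lists, by the same edgeR calls. Of all tested genes 30.4% fell and 29% rose with shade in Col-0, and 33.1% fell and 34.4% rose in bbx28-5. In shade 20.9% of all genes were higher and 14.5% lower in bbx28-5 than in Col-0. Of 155 tested cytosolic ribosomal protein genes outside the 51, 103 fell and 3 rose with shade in Col-0 (median -0.48), 65 fell and 23 rose in bbx28-5 (median -0.15), and 83 were higher and 2 lower in bbx28-5 than in Col-0 in shade. Of 32 ribosome biogenesis genes 18 fell and 2 rose in Col-0, among them NOP56 and FIB2, which act on nucleolar rRNA modification, with log2 fold changes of -1.65 and -1.98. Of 12 translation factor genes 9 fell and 2 rose in Col-0. AT5G60390 changed by -0.88 and AT5G12110 by 1.24. Of 20 tested plastid ribosomal protein genes 14 fell and 1 rose in Col-0, and 16 were higher in bbx28-5 in shade. Among 5 genes of TOR and S6 kinase, TOR and S6K2 rose in Col-0, with log2 fold changes of 0.83 and 0.53, and the other 3 had no call.

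The balance of the members against 21 listed plastid ribosomal protein genes moved little with light. The 164 other cytosolic ribosomal protein genes were left out of it, so its level is not that of all cytosolic genes. The log2 ratio of the summed counts was 0.49 ± 0.05 in white light and 0.45 ± 0.06 in shade in Col-0, and 0.34 ± 0.10 and 0.42 ± 0.04 in bbx28-5 (SD, n = 3). The libraries of the 2 lights overlapped in both genotypes. In white light every bbx28-5 library was below every Col-0 library, by 0.15 in the mean, and in shade they overlapped. As a mean of log2 values in place of a sum, every bbx28-5 library was below every Col-0 library in shade too, at -1.17 to -1.13 against -1.08 to -0.94.

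Markers of cell types moved with light and with genotype beside these results. With shade in Col-0 all 5 dividing cell markers fell, and their summed level went from 66.6 to 68.0 CPM to 29.6 to 32.7 CPM, and in bbx28-5 from 50.1 to 58.7 CPM to 15.97 to 21.8 CPM. Green tissue markers fell in 5 of 5 cases in Col-0 and 4 of 5 in bbx28-5, where 30.4% and 33.1% of all genes fell. In shade 3 of 5 green tissue markers, RCA, RBCS1A and CAB1, were higher in bbx28-5 than in Col-0, with sums of 16670 to 19770 CPM in Col-0 and 23800 to 32120 CPM in bbx28-5, and 2 of 5 dividing cell markers, CDKB2;1 and CYC1BAT, were lower. The CAB1 libraries overlapped there, at 5530 to 7090 CPM in Col-0 and 6660 to 10400 CPM in bbx28-5. In white light edgeR called none of these 10 between the genotypes, while the libraries did not overlap in 3 green tissue markers, higher in bbx28-5, and 4 dividing cell markers, lower in it. For all genes in white light these shares were 19.4% higher and 20.2% lower. EdgeR called 3.8% of all genes higher and 6.08% lower in bbx28-5 in white light, and 20.9% and 14.5% in shade. Between the genotypes 3 of 4 root markers were lower in bbx28-5 in each light, with sums of 115 to 134 CPM in Col-0 and 40.2 to 46.0 CPM in bbx28-5 in white light, and 84.7 to 98.0 CPM and 45.5 to 50.95 CPM in shade. IRT1 was at 0 in all bbx28-5 shade libraries. Of 3 seed storage markers 2 were higher in bbx28-5 in each light, with sums of 43.5 to 94.2 CPM in Col-0 and 96.4 to 166 CPM in bbx28-5 in white light, and 40.6 to 106 CPM and 76.1 to 443 CPM in shade, and SESA3 was at 0 in 1 Col-0 library of each light. The part of these tissues in the members' values was not tested. All 3 shade response markers rose in both genotypes, HB-2 by 3.07 in Col-0 and 3.44 in bbx28-5 on the log2 scale.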

How the data were processed

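RNA sequencing of whole seedlings gave 12 libraries. Both a count table and a normalized table were deposited by the authors. Per the submitters' processing notes, FastQC, HISAT, SAMtools, HTSeq and edgeR were used on TAIR10, with no versions given. The deposited counts are whole numbers for 32833 genes. The deposited normalized table holds log2 CPM after TMM scaling for 19724 genes. It was recomputed from the counts within 5e-14 and served only as another choice of genes.

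From the counts, edgeR 4.0.16 in R 4.3.3 kept 19711 genes with filterByExpr (99.93% of counts) and fitted all 12 libraries with a mean per group and TMM scaling. Benjamini-Hochberg adjustment ran over all 19711 genes, with a threshold of 0.05. Paralogs were also summed by family and fitted the same way, and count ratios of paralogs were tested by permutation in Python 3.11.15. Both kinds of test were first tested on simulated data. Totals per library were 10.6 to 14.3 M, so 3 counts, taken as the floor, were 0.21 to 0.283 CPM. Alternatives were total counts, DESeq2 1.42.0, other filters, offsets by transcript length, the replicate number as a block, only the groups compared, and leaving out each library.

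Gene symbols and upstream sequences came from RefSeq TAIR10.1, in which all 51 members and 32548 of 32833 identifiers were found. TAIR10.1 was taken to share the nuclear coordinates of TAIR10. The members and lists were chosen with earlier results of these data known. Named members are the up to 6 largest rises and 6 largest falls per contrast, the paralogs at the smallest permutation p, families called in opposite directions, and the 5 highest and 5 lowest levels, and up to 4 genes of each other list. A few further members are named as their paralogs, and were chosen after their values were seen. Replicate numbers did not pair libraries: residuals of libraries with the same number correlated from -0.123 to 0.097.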

Additional observations from a re-analysis of the deposited data

Results flagged for a closer look

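The interaction term of edgeR's quasi-likelihood test was called for 4 of 49 members, all higher in bbx28-5. That share is near the 6.52% of all genes called higher, so the count is not particular to the members. By total counts 1 was called higher and 2 lower, and 1 to 14 were higher when 1 library was left out. Of all 19711 genes 479 were called higher and 2641 lower by total counts. When 1 library was left out, 717 to 2685 of all genes were called higher. The difference, bbx28-5 minus Col-0 on the log2 scale, was 1.028 for AT5G27850, 0.753 for SAG24, 0.593 for PFL and 0.494 for AT3G09630. The call of AT5G27850 held under every alternative run. SAG24 and AT3G09630 lost theirs in 10 alternatives each and PFL in 12, total counts being among them for all 3. Without bbx28-5 shade replicate 2 the values were 0.50 for SAG24 and 0.39 for PFL.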

How the results depend on the processing

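No alternative moved the counts of falls in shade by over 1.5 times in either genotype, nor the family sums there. In bbx28-5 that bound was reached under total counts, with 33 falls against 22. Without bbx28-5 shade replicate 2 they were 30. Other counts that moved are given by setting. Under total counts the members called higher were 1 with shade in Col-0 and 3 with shade in bbx28-5, where the medians were -0.613 and -0.533. Of all 19711 genes 5262 and 4644 were then higher. For genotype in shade 11 members were then higher and 9 lower, with a median of 0.077 and 5 family sums called. The interaction gave 1 higher and 2 lower with a median of 0.028. Of all genes 1507 were higher and 6536 lower for genotype in shade, and 479 and 2641 for the interaction. Offsets by transcript length gave 4 higher with shade in Col-0, 9 for genotype in white light (3 family sums) and 2 lower for genotype in shade. The medians were -0.497 with shade in Col-0, -0.30 with shade in bbx28-5, 0.191 for genotype in white light and 0.123 for the interaction. Of all genes those offsets called 6781 higher with shade in Col-0, 1528 higher for genotype in white light and 2915 lower for genotype in shade. Fits of only the 2 groups compared gave 4 higher with shade in Col-0, 15 for genotype in white light (10 family sums) and 12 with 0 lower for genotype in shade (7 family sums). In these fits 6947, 2430 and 1838 of all genes were higher, and 1866 were lower for genotype in shade. This kind of fit was not run for the interaction, which needs all 4 groups. DESeq2 called 1 higher for genotype in white light and 8 for the interaction (3 family sums), against 1091 and 1638 of all genes. For genotype in shade the lower count was 0 with DESeq2, with its size factors in edgeR and with TMM without ribosomal protein genes, and 2 with no filter on low counts. TMM without ribosomal protein genes gave a median of -0.621 with shade in Col-0 and 3 family sums for the interaction. With the replicate number as a block the interaction called 2 members in place of 4, and 974 of all genes in place of 1285 higher. No other count of members or family sums moved by over 1.5 times with that block. The cytosolic to plastid difference for genotype in shade was -0.141 as a mean of log2 values. The cause of these shifts was not tested.

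Leaving out each library in turn gave these ranges. With shade in Col-0, 1 to 4 members were higher, 29 to 41 lower, with medians of -0.576 to -0.518 and 13 to 19 family sums called. With shade in bbx28-5, 5 to 12 were higher and 20 to 30 lower, with medians of -0.375 to -0.052 and 11 to 17 family sums. For genotype in white light, 0 to 9 were higher and 1 lower, with medians of 0.083 to 0.131 and 0 to 3 family sums. Of all genes 322 to 2263 were higher there. For genotype in shade, 19 to 33 were higher and 0 to 2 lower, with medians of 0.194 to 0.527 and 14 to 20 family sums. For the interaction, 1 to 14 were higher and 0 lower, with medians of 0.094 to 0.39 and 1 to 9 family sums. Of all genes 717 to 2685 were called higher for it. Paralog ratios with p under 0.05 numbered 29 to 30 for light and 14 to 20 for genotype, by exact permutation tests. The cytosolic to plastid difference was -0.072 to -0.01 with shade in Col-0, 0.023 to 0.117 with shade in bbx28-5, -0.184 to -0.09 for genotype in white light and -0.057 to 0.005 for genotype in shade, where it turned sign without Col0_SS replicate 3. Of 68 results for named members, 12 lost their call in some alternative and none turned sign. PFL with shade in bbx28-5, which is outside these 68, had a log2 fold change of -0.01 under total counts against 0.35 by TMM. Depth limits AT5G59240, AT3G51190 and RPL27AB, and 3 libraries a group limit the permutation tests.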
